A study of Mus musculus with 16 samples.

Results

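The diet by genotype interaction in liver is the amount by which the effect of a high-fat diet (HFD) in Fgf1 null liver departed from that in wild-type liver. For each gene it is HFD minus chow in Fgf1 null liver less HFD minus chow in wild-type liver, in log2 units, where 1 is a 2-fold difference. It was taken from 8 of the 16 arrays of the series, all those of liver, and from the 8894 of 25697 probes that stood for a detected gene or, in 683 cases, for a detected probe with no gene name. The 4 groups were wild-type on chow, wild-type on HFD, Fgf1 null on chow and Fgf1 null on HFD. The mice were 24 weeks old and had been on their diet for 16 weeks. Strain, sex and the construct of the Fgf1 deletion are not given in the sources used here. The 2 arrays of each group are labelled as technical replicates, so the 8 arrays hold 4 RNA samples. The labels do not say if a sample is a pool of mice. Every error and p-value below therefore measures the spread between arrays of the same RNA. The comparisons are between 4 RNA samples and do not test genotype or diet across mice.

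Fibroblast growth factor 1 (FGF1) is a secreted growth factor that activates cell surface FGF receptors and is known in mice for its part in the adaptation of fat tissue to a rich diet and in the control of blood glucose. The liver takes up, makes, burns and stores fat. Transcription factors of the SREBP family switch on the synthesis of cholesterol and fatty acids when sterols are scarce or insulin is high, PPARα switches on fat burning, and PPARγ, normally low in hepatocytes, switches on lipid droplet genes in fatty liver.

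Fgf1, the gene named in the genotype labels, read 10.38 and 10.23 on the arrays of wild-type chow, 9.63 and 9.68 of wild-type HFD, 9.24 and 9.48 of Fgf1 null chow and 8.18 and 8.28 of Fgf1 null HFD (normalized log2 intensity). Both null samples thus lay below both wild-type samples, with signal remaining in each. The interaction of Fgf1 was -0.48 ± 0.19 (SE, n = 2 arrays in each group; adjusted p 0.142, limma) and was not called. The sources used here do not place the probe inside or outside the deletion, and outside it the probe would check nothing. Camk2b, a subunit of a calcium-dependent kinase, was not detected on any wild-type liver array and read 8.32 to 8.91 in the null samples, with an interaction of 0.29 ± 0.27 that was not called. Hepatocyte markers, such as Apoa1 and Ttr, were detected on both arrays of every group for 9 of the 12 markers with a probe. Tat and Fgb were undetected in all 4 groups. Alb was undetected in null chow and did not pass the detection filter. The arrays detected 10626 to 11650 probes each, at median raw intensities of 103 to 115, and arrays of the same group had correlations of 0.988 to 0.993 over probes.

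A gene was called when limma's adjusted p was under 0.05 and the interaction was at least 2-fold. By this rule 703 of the 8894 rows tested, or 7.9%, were called. The interaction was positive, that is higher in Fgf1 null, in 403 of them (4.53% of rows tested) and negative in 300 (3.37%). Counting size alone, with no p-value, 9.61% of rows reached 2-fold. The median interaction over all rows was 0.05. Called genes came from several arrangements of the 4 samples, as the plot of both diet differences shows. In 284 genes the diet difference reached 2-fold in the null liver alone, and 201 of these had a positive interaction. In 162 it reached 2-fold in wild-type liver alone, with 69 positive and 93 negative. In 23 genes it reached 2-fold in both genotypes with opposite signs, in 33 with the same sign, and in 201 in neither. Over all 8894 rows, called or not, it reached 2-fold in null liver alone in 596 and in wild-type liver alone in 339. There it reached 2-fold in both with opposite signs in 23, with the same sign in 157 and in neither in 7779. In 135 called genes the Fgf1 null HFD sample stood at least 2-fold from each of the other samples while those lay within 2-fold of each other, and it was the highest in 118 of these. The wild-type HFD sample stood apart in this way in 46 called genes, wild-type chow in 19 and Fgf1 null chow in 18. In the other 485 no sample stood apart by this measure. In 156 called genes a group was not detected on either array. For 48 of these the interaction has a bound of at least 2-fold, given below as "at least", and for 66 it has none.

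**Figure D1:**
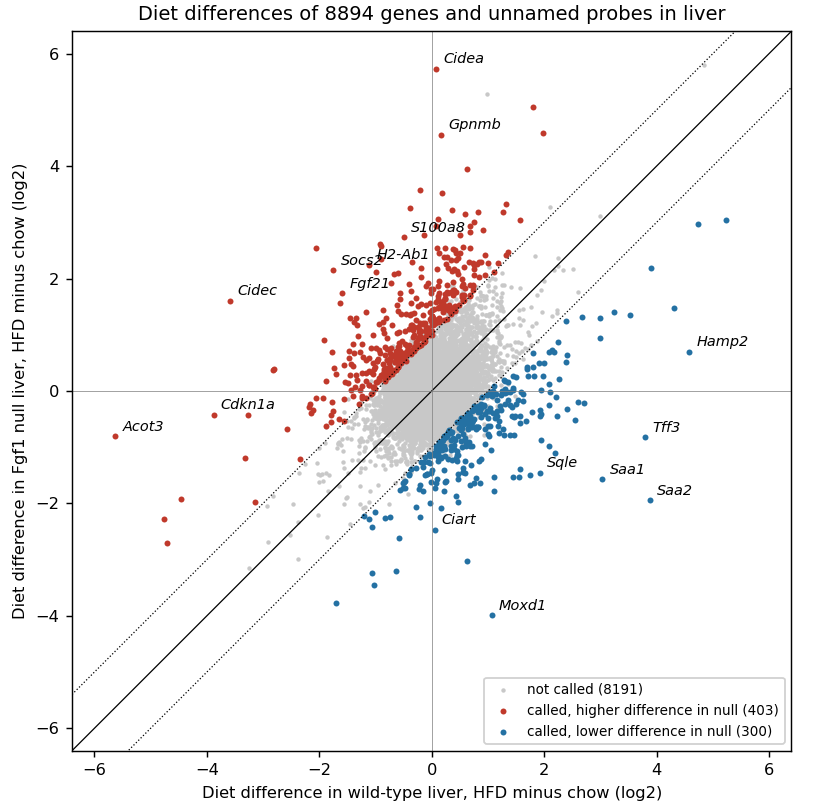
HFD minus chow in wild-type liver (horizontal, log2) against HFD minus chow in Fgf1 null liver (vertical, log2), each point a gene or unnamed probe; the solid line marks equal diet differences and the dotted lines a 2-fold interaction. The 403 genes called higher lie above the upper dotted line and the 300 called lower below the lower one, with Cidea, Acot3, Saa2 and Moxd1 among the farthest from the solid line. Genes beyond the plotted range are not shown, such as Cyp4a14 and Cyp4a31, called higher, with wild-type diet differences of -7.89 and -7.61.

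Most cholesterol genes were called lower: 14 of 18 measured genes of cholesterol synthesis and uptake were called lower and 0 higher, and the interaction was negative in each of the 18, with a median of -1.98. By the sign of the group means alone, 13 of the 14 called genes were higher on HFD in wild-type liver and lower on HFD in Fgf1 null liver. The null difference was small in some of them, such as Nsdhl at -0.19 ± 0.30. Sqle, the squalene epoxidase that commits squalene to sterols, read 9.01 and 9.20 in wild-type chow and 11.10 and 10.97 in wild-type HFD. In Fgf1 null liver it read 10.10 and 10.06 on chow and 8.38 and 8.88 on HFD. The 4 groups of Sqle did not overlap, with wild-type HFD highest and null HFD lowest, and the interaction was -3.38 ± 0.25 (adjusted p 0.000304, limma). Pmvk, a kinase of the mevalonate pathway, read 7.13 and 6.76 in wild-type chow, 9.54 and 9.45 in wild-type HFD, 7.65 and 7.82 in null chow and 7.18 and 7.26 in null HFD. For Pmvk only wild-type HFD stood apart, above the others, and the interaction was -3.06 ± 0.21. Msmo1, a methylsterol oxidase, read 11.02 and 11.09 in wild-type chow, 12.23 and 12.11 in wild-type HFD, 11.93 and 11.86 in null chow and 10.23 and 10.01 in null HFD. Its highest sample was wild-type HFD and its lowest null HFD, with no overlap of groups, and the interaction was -2.90 ± 0.18.

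The other called members covered the pathway from its start to its end. Hmgcs1, the synthase that opens the mevalonate pathway, had an interaction of -1.33 ± 0.15 and Mvd, which closes it, one of -1.60 ± 0.22. Idi1, detected on 1 of 2 wild-type chow arrays, and Fdps, which build the isoprenoid chain, were at -2.97 ± 0.33 and -2.05 ± 0.19. Fdps was the member that rose on HFD in both genotypes, from 10.89 and 10.84 to 14.01 and 13.72 in wild-type liver and from 11.43 and 11.38 to 12.31 and 12.39 in null liver. Lss, which closes the sterol rings, was at -2.22 ± 0.30. Cyp51, Tm7sf2, Nsdhl, Hsd17b7, Ebp and Dhcr7, which convert lanosterol to cholesterol, lay between -1.07 for Ebp and -2.79 for Nsdhl. The members not called were Sc5d at -0.97 ± 0.17, the sterol carrier Stard4 at -0.88 ± 0.20, the master regulator Srebf2 at -0.44 ± 0.28 and Insig1, which holds SREBPs in the endoplasmic reticulum, at -0.43 ± 0.28. Insig1 was called at -2.02 with the mean of its probes and at -1.95 without wild-type chow array 1. Under the alternatives tried, 13 to 16 of the members were called lower. Abcg8, which exports sterols into bile, was called lower at -1.06 ± 0.21, a call lost in 6 of 22 alternatives, 4 of which leave out an array (wild-type chow 2, wild-type HFD 1, null chow 1 or null HFD 2).

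**Figure D2:**
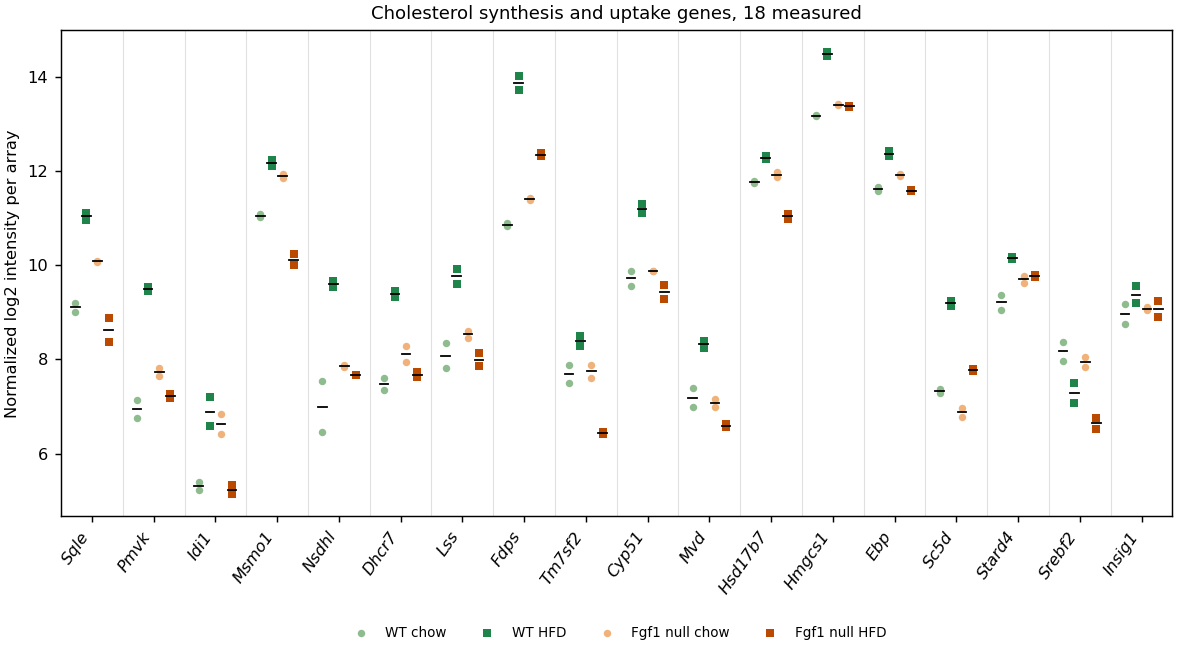
Normalized log2 intensity on each of the 8 liver arrays (points) with the mean of each group (black bar) for the 18 measured cholesterol synthesis and uptake genes, ordered by interaction. In most of them wild-type HFD (dark green squares) is the highest sample, and Fgf1 null HFD (dark orange squares) lies below Fgf1 null chow by its mean in all but Fdps, Sc5d and Stard4.

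SREBP binds a sterol regulatory element, here searched as TCACNCCAC on both strands in the 250 bases before the annotated start of each gene (RefSeq, build GRCm38.p6). Of the 15 measured cholesterol genes with a promoter entry, 1 held it, Hmgcs1, against 1.25% of the 6703 tested genes with a promoter. Its window, chr13:119690101-119690350 on the plus strand, lies just upstream of the annotated transcript and is shown because Hmgcs1 opens the pathway, with the motif, which begins 137 bases before the start, in capitals.
Hmgcs1: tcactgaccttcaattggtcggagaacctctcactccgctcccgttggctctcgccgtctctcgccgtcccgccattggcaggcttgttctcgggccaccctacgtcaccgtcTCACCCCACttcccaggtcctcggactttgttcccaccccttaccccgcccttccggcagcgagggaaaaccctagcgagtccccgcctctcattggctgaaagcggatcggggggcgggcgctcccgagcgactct
Hmgcs1 itself read 13.19 and 13.16 in wild-type chow, 14.52 and 14.44 in wild-type HFD, and 13.37 to 13.42 on the 4 null arrays. It was higher only in wild-type HFD, and the null groups lay within 0.05 of each other.

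Fatty acid synthesis was called lower in a smaller share of its genes. Of 17 measured genes of de novo lipogenesis 5 were lower and 1 higher, with a median of -0.53, which was -0.88 with median scaling. Thrsp, a nuclear protein tied to lipogenesis, rose on HFD by 5.24 in wild-type and by 3.04 in null liver, an interaction of -2.20 ± 0.21. Srebf1, the transcription factor of fatty acid synthesis, read 6.47 and 6.72 in wild-type chow, 10.49 and 10.51 in wild-type HFD, 7.23 and 7.36 in null chow and 9.54 and 9.45 in null HFD. Both genotypes rose on HFD with no overlap of chow and HFD, and the rise was smaller in null liver (interaction -1.71 ± 0.19, adjusted p 0.00146, limma). Acss2, which makes acetyl-CoA from acetate, was at -1.77 ± 0.18, Mid1ip1, an activator of acetyl-CoA carboxylase, at -1.88 ± 0.38 (lost without null chow array 1 or 2 or null HFD array 1), and Gpam, a glycerol phosphate acyltransferase, at -1.48 ± 0.40. The list's 5 lower calls became 3 without Fgf1 null chow array 1 and also without array 2, and Gpam lost its call in 11 of 22 alternatives, 6 of which leave out an array (any but wild-type chow 2 and wild-type HFD 2). Insig2, the form of Insig that is low when insulin is high, was called higher at 1.79 ± 0.17. The core enzymes were not called: Acaca had -0.01 ± 0.24 and Scd1 0.22 ± 0.19, while Acly, at -0.79 ± 0.20, and Fasn, at -0.93 ± 0.25 and undetected on chow in both genotypes, were under 2-fold.

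Lipid droplet and fat storage genes went the other way. Of 23 measured genes of triglyceride synthesis and lipid droplets 10 were called higher and 0 lower, with a median of 0.60. Of 20 genes that PPARs and fat storage raise in fatty liver 11 were higher and 3 lower, with a median of 1.89. When every group had to be detected, the 11 became 7. Cidec, a droplet protein that fuses droplets, read 8.88 and 8.65 in wild-type chow, 5.65 and 4.71 in wild-type HFD, 8.55 and 8.73 in null chow and 10.33 and 10.16 in null HFD. Wild-type HFD was the lowest and null HFD the highest sample, and the interaction was 5.19 ± 0.39 (adjusted p 0.000323, limma). Wild-type HFD was detected on 1 of 2 arrays, so that value rests on a level near background. Cidea, its relative, was detected in null HFD alone, at 10.35 and 10.23, where it was at least 33.2-fold above null chow. Since wild-type liver was below detection on both diets, the interaction of Cidea has no bound.

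Pparg, the nuclear receptor of fat storage, read 8.01 and 7.98 in wild-type chow, 7.45 and 7.30 in wild-type HFD, 7.84 and 7.79 in null chow and 9.30 and 9.40 in null HFD. Null HFD was the highest sample and wild-type HFD the lowest, and the interaction was 2.16 ± 0.17 (adjusted p 0.000331, limma). It was still called, at 1.15, when the probes of Pparg were averaged. Mogat1, a monoacylglycerol acyltransferase detected on 1 of 2 wild-type HFD arrays, was at 3.49 ± 0.21, with null HFD at 8.21 and 7.89 and the other arrays between 5.06 and 6.13. Lipoprotein lipase, Lpl, had 1.94 ± 0.19, Anxa5, an annexin, 1.84 ± 0.16 and Gpc1, a glypican, 1.97 ± 0.18, all with null HFD as the sample that stood apart. Plin4, a droplet coat protein, read 7.82 and 7.54 in wild-type HFD, 10.70 and 10.72 in null chow and 10.20 and 10.37 in null HFD, with a mean of 10.95 ± 0.06 (SD, n = 2 arrays) in wild-type chow. There wild-type HFD stood apart, below the others, and the interaction was 2.84 ± 0.19. G0s2, an inhibitor of fat breakdown, was at 1.34 ± 0.19 and Gpat3 at 1.26 ± 0.19. Plin2, the main droplet protein of hepatocytes, was called at 1.33 ± 0.31, and its call was lost in 10 of 22 alternatives, among them the omission of each array but wild-type chow 1. The droplet list had 6 calls in place of 10 without null HFD array 2, and also with the authors' values or with no background correction. Lipases and acyltransferases such as Pnpla2 (-0.14 ± 0.20) and Dgat2 (-0.37 ± 0.21) were not called. The 12 adipocyte markers with a probe, Cidea among them, summed to an intensity of 2929 to 4989 in wild-type chow, 8738 to 11222 in wild-type HFD, 5133 to 5173 in null chow and 12013 to 13209 in null HFD. Of the defining ones Plin1, Retn, Fabp4 and Adig were undetected in all 4 groups. Others were detected in part. Adipoq was undetected in wild-type chow and null HFD but had signal on at least 1 array of each other group. Lep lacked signal only for wild-type chow, and was detected on at least 1 array of null chow and of both HFD groups. The part of these markers in the fat storage calls was not tested.

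**Figure D3:**
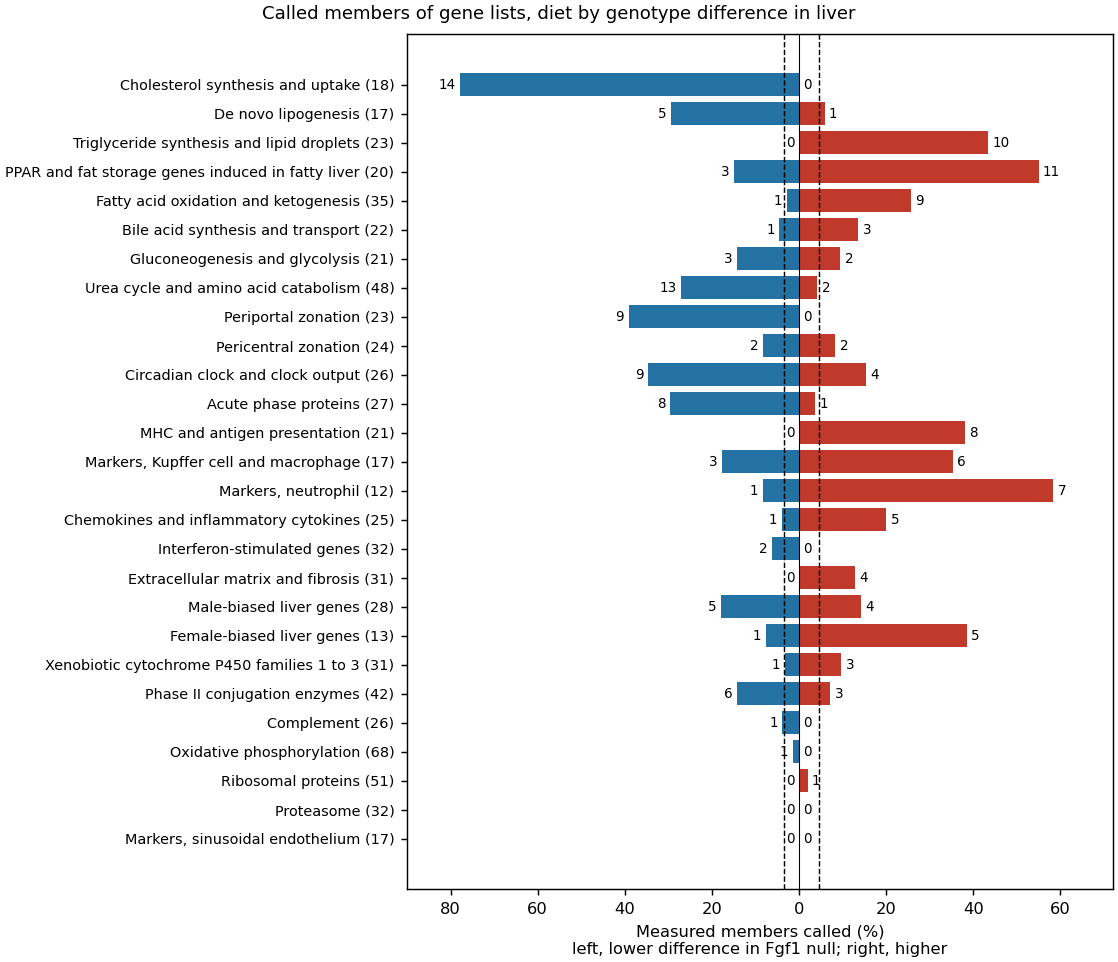
Share of measured members called higher in Fgf1 null (red, right) or lower (blue, left) for 27 gene lists, with the number called at each bar and the number measured in parentheses; dashed lines mark the shares over all rows tested, 4.53% higher and 3.37% lower. Cholesterol synthesis reaches farthest to the left and neutrophil markers and fat storage genes farthest to the right.

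Fat burning genes were called higher in 9 of 35 and lower in 1, with a median of 0.43, which was 0.15 with median scaling. By the sign of the group means alone, 6 of the 9 were lower on HFD in both genotypes, less so in null liver. The other 3 were lower on HFD in wild-type and higher in null liver. Cyp4a14, a fatty acid hydroxylase and PPARα target, read 15.08 and 15.15 in wild-type chow and 14.66 and 15.03 in null chow, against 7.21 and 7.24 in wild-type HFD and 9.44 and 9.01 in null HFD. Both HFD groups lay far below both chow groups, wild-type HFD was the lowest, and no groups overlapped. The interaction was 2.27 ± 0.26. Its neighbour in the family Cyp4a31 was at 1.96 ± 0.19. Pex11a, a peroxisome membrane protein, had 2.00 ± 0.19, Pdk4, which holds back glucose oxidation, 1.94 ± 0.24, and Crat, carnitine acetyltransferase, 1.76 ± 0.27, a call lost with the mean of its probes (0.78). Of 10 acyl-CoA thioesterases, which split fatty acids from coenzyme A, 3 were called higher and 1 lower. Acot3 read 11.10 and 11.22 in wild-type chow, 5.52 and 5.54 in wild-type HFD, 9.76 and 9.89 in null chow and 9.02 and 9.03 in null HFD. Wild-type HFD lay far below the other groups, none overlapped, and the interaction of 4.83 ± 0.16 (adjusted p 1.73e-05, limma) was the largest positive one among named genes whose groups were all detected. Acot1 was at 2.49 ± 0.36 and Acot4 at 1.94 ± 0.17, while Acot11 was lower at -1.15 ± 0.19, a call lost in 4 of 22 alternatives. Members of these families are similar in sequence, and probes may share signal between them. The mitochondrial spiral itself was mostly not called, with Acadm at 0.53 ± 0.16, Hadhb at 0.45 ± 0.19 and Cpt2 at 0.39 ± 0.16. Ppara, at 0.02 ± 0.24, was not called either, and Ppargc1a, its coactivator, was the member called lower, at -1.85 ± 0.31.

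Among FGF ligands, receptors and signalling genes 2 of 11 were called, both higher. Fgf21, the fasting hormone made by liver and a PPARα target, read 8.91 and 8.89 in wild-type chow, 7.22 and 7.39 in wild-type HFD, 8.17 and 7.91 in null chow and 9.89 and 9.66 in null HFD. It was lower on HFD in wild-type and higher on HFD in null liver, with no overlap of groups, and the interaction was 3.33 ± 0.21 (adjusted p 0.000203, limma). Egr1, an early response gene downstream of growth factor receptors, was at 2.13 ± 0.19. The receptors Fgfr2 (0.24 ± 0.32) and Fgfr3 (-0.56 ± 0.44, on chow detected on 1 of 2 arrays a group), the coreceptor Klb (-0.34 ± 0.34) and the feedback genes Dusp6 (-0.08 ± 0.28) and Spred1 (-0.06 ± 0.21) were not called. Fgfr1 and Fgfr4 did not pass the detection filter.

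Growth hormone and STAT signalling had 2 calls each way. Socs2, a suppressor induced by growth hormone through STAT5, read 8.99 and 9.10 in wild-type chow, 7.33 and 7.26 in wild-type HFD, 8.01 and 8.07 in null chow and 10.02 and 10.37 in null HFD. The order was that of Fgf21, with null HFD highest and wild-type HFD lowest, and the interaction was 3.90 ± 0.20 (adjusted p 0.000103, limma). Bcl6, a repressor in the same axis, was higher at 1.71 ± 0.17. Socs3, the suppressor induced by interleukin 6 through STAT3, was lower at -1.94 ± 0.22, and Stat3 itself at -1.09 ± 0.16. The remaining 8 of 12 genes, among them Ghr, Igf1 and Jak2, were not called. Cdkn1a, the cell cycle inhibitor p21, read 9.46 and 9.86 in wild-type chow and 8.92 and 9.04 in null chow, against 5.71 and 5.85 in wild-type HFD and 8.56 and 8.55 in null HFD. Only wild-type HFD was low, and the interaction was 3.45 ± 0.22, or 1.96 when its probes were averaged.

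**Figure D4:**
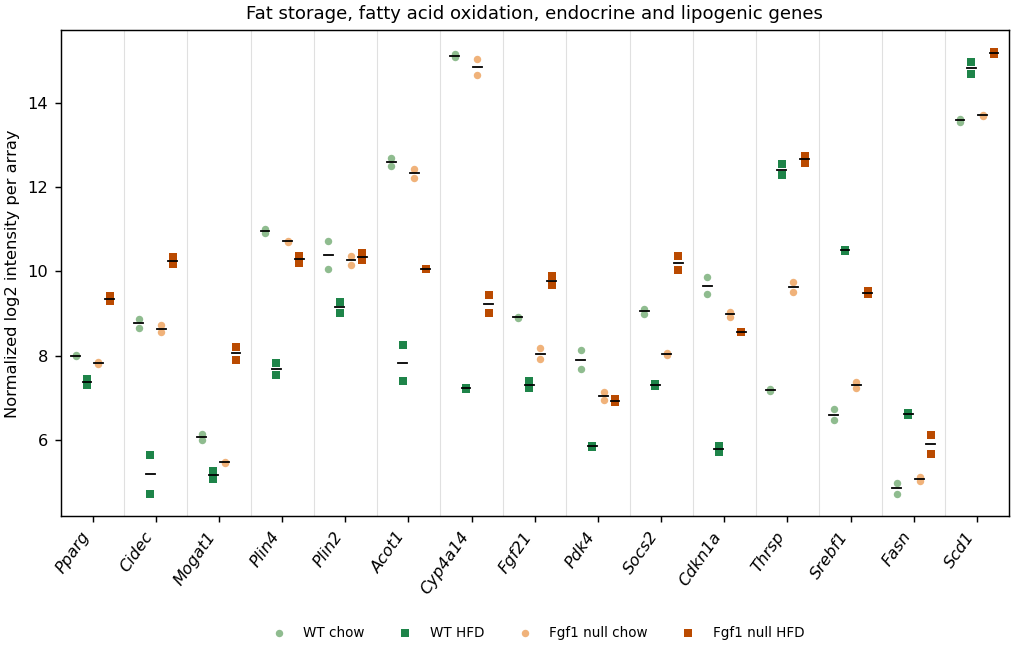
Normalized log2 intensity on each of the 8 liver arrays (points) with group means (black bars) for fat storage, fatty acid oxidation, endocrine and lipogenic genes. Fgf21 and Socs2 are lowest in wild-type HFD and highest in Fgf1 null HFD, while Scd1 rises on HFD by like amounts in both genotypes.

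Among named genes detected in every group, Saa2, Saa1 and Hamp2 had the largest negative interactions. Of 27 measured acute phase genes 8 were called lower and 1 higher, with a median of -0.51. Saa2, a serum amyloid, read 6.78 and 6.50 in wild-type chow, 10.47 and 10.57 in wild-type HFD, 8.88 and 8.55 in null chow and 6.83 and 6.71 in null HFD. It was higher on HFD in wild-type and lower on HFD in null liver, with wild-type chow overlapping null HFD, and the interaction was -5.83 ± 0.22 (adjusted p 2.21e-05, limma). Saa1, whose sequence is similar, had -4.60 ± 0.39. The orosomucoid Orm2 was at -1.83 ± 0.19, the serpin Serpina3n at -1.26 ± 0.17 and Lcn2, which binds bacterial iron carriers, at -2.18 ± 0.18. Orm2 and Lcn2 rose on HFD in both genotypes and rose less in null liver. The more abundant Hp, Hpx, Crp and Ttr were not called, at -0.29, -0.05, 0.03 and -0.08.

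Of 26 iron and metal genes 4 were higher and 3 lower. Hamp2, a copy of the hepcidin gene that mice carry, read 7.47 and 7.24 in wild-type chow, 11.85 and 12.03 in wild-type HFD, 8.44 and 8.45 in null chow and 9.12 and 9.16 in null HFD. Wild-type HFD was far above the other groups, and the interaction was -3.89 ± 0.18. Hamp, which encodes hepcidin itself, was not called, at -0.49 ± 0.20. Mt1, a metallothionein that binds zinc and copper, fell on HFD in both genotypes and farther in null liver. It read 14.39 and 14.33 in wild-type chow, 12.61 and 12.71 in wild-type HFD, 15.77 and 15.71 in null chow and 11.94 and 12.01 in null HFD. Its interaction was -2.07 ± 0.16, and null liver held both its highest and its lowest sample. Its relative Mt2, not detected in null HFD, was at least 4.81-fold lower.

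Antigen presentation was called at its class II path. Of 21 measured genes of major histocompatibility complex (MHC) presentation 8 were called higher and 0 lower, with a median of 0.32, and each of the 8 belongs to that path. H2-Ab1, a class II chain, read 10.16 and 9.95 in wild-type chow, 8.86 and 9.02 in wild-type HFD, 9.65 and 9.66 in null chow and 11.86 and 11.93 in null HFD. Null HFD was the highest and wild-type HFD the lowest group, with no overlap, and the interaction was 3.36 ± 0.18 (adjusted p 0.000103, limma). The partners H2-Eb1 and H2-Aa were at 3.25 ± 0.19 and 2.69 ± 0.21, and Cd74, the invariant chain, at 2.76 ± 0.18. H2-DMa and H2-DMb1, which load peptides, were at 2.29 ± 0.27 and 2.30 ± 0.17. Ciita, the transactivator of class II genes, was undetected on chow and on HFD at least 1.97-fold above chow in null liver. Its interaction has no bound, and its call was lost whenever 1 of the 4 null arrays was left out. Ctss, a protease that trims the invariant chain, was at 1.02 ± 0.28 and lost its call in 13 of 22 alternatives, among them the omission of each array but null chow 2. Class I genes were not called, B2m being at 0.03 ± 0.18 and H2-K1 at -0.48 ± 0.24.

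The factor complex that Ciita joins sits on an X box, whose consensus was searched on both strands in the same windows. Of 14 measured MHC genes with a promoter entry 1 held it, H2-DMb1, and no other of the 6703 tested genes with a promoter did (0.0149%). Its window, chr17:34152941-34153190 on the plus strand upstream of the annotated start, is shown with the motif, which begins 98 bases before the start, in capitals.
H2-DMb1: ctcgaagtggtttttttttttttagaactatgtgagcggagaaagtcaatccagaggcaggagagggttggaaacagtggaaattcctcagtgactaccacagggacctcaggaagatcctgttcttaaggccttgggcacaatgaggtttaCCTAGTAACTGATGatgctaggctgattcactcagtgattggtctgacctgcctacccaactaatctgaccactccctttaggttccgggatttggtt
H2-DMb1 read 7.09 and 6.93 in wild-type chow, 6.59 and 6.63 in wild-type HFD, 6.43 and 6.51 in null chow and 8.39 and 8.34 in null HFD, so that null HFD alone was raised.

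Leukocyte markers were called in both directions, more often higher. Ctss, among the class II calls above, is also on the list of macrophage markers. Among 7 measured markers of T, NK and B cells, 2 were called higher and 0 lower. Of 17 measured markers of Kupffer cells and macrophages 6 were called higher and 3 lower, with a median of 0.72. Over the 22 such markers on the array the summed normalized intensity was 4572 to 4648 in wild-type chow, 7353 to 8099 in wild-type HFD, 5506 to 5587 in null chow and 18654 to 19517 in null HFD. Lyz1 alone made up most of the rise of this sum from wild-type HFD to null HFD. It read 10.76 and 10.85 in wild-type HFD and 13.19 and 13.25 in null HFD. Trem2, a lipid receptor of macrophages, was at 2.27 ± 0.31, with both chow groups detected on 1 of 2 arrays. Its adaptor Tyrobp was undetected on chow in both genotypes and on HFD at least 4.76-fold above chow in null and at least 1.41-fold in wild-type liver, which leaves its interaction without a bound. The lysozymes Lyz1 and Lyz2 were at 2.15 ± 0.17 and 1.49 ± 0.26. Gpnmb, a glycoprotein of lipid-laden macrophages, was at 4.40 ± 0.32 with null HFD at 9.48 and 9.72 and the other arrays, 2 of 6 of them with signal above background, between 4.81 and 5.35. Gpnmb was undetected on both wild-type chow arrays, which leaves its interaction without a bound. It was singled out with its values already seen. The 3 lower calls were markers of resident Kupffer cells: Cd163, a scavenger receptor not detected in null HFD, was at least 10.01-fold lower, Vsig4, a complement receptor, was at -1.41 ± 0.18, and Timd4, a phosphatidylserine receptor, was at least 2.23-fold lower, a call lost without wild-type HFD array 2 and without null HFD array 1. Clec4f, another Kupffer cell gene, was not called at -0.44 ± 0.23, nor was the macrophage marker Adgre1 at 0.87 ± 0.35. The part of these markers in the class II result was not tested. In RNA of whole liver, fewer or more cells of a type cannot be told apart from less or more RNA per cell.

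Neutrophil markers were called higher in 7 of 12 and lower in 1, with a median of 1.24. S100a8, a calcium-binding protein of neutrophils, read 6.65 and 6.98 in wild-type chow, 6.13 and 6.51 in wild-type HFD, 7.56 and 7.76 in null chow and 10.33 and 10.45 in null HFD. Null HFD was the highest group, the wild-type groups lay lowest, and the interaction was 3.23 ± 0.25, with its partner S100a9 at 2.90 ± 0.22. The granule genes Ltf, Ngp and Camp were detected in null HFD alone. The lower member was Lcn2, which hepatocytes also make. The summed intensity of the list was 9086 to 9249 in null HFD and 9456 to 9885 in wild-type HFD, against at most 3384 on chow. Lcn2 made up most of the sum in both HFD groups, with means of 12.71 in null HFD and 13.17 in wild-type HFD. When every group had to be detected, 3 macrophage and 2 neutrophil markers were called higher, and without background correction or with a larger offset 3 neutrophil markers were. Among 25 chemokines and cytokines 5 were higher and 1 lower. Ccl5, a T cell chemokine, was at 2.45 ± 0.20, with null HFD at 8.32 and 8.41 and the other arrays between 5.50 and 5.89. Cxcl1, a neutrophil chemokine, went the other way at -3.30 ± 0.19: it read 8.03 and 8.09 in wild-type chow, 10.29 and 10.22 in wild-type HFD, 11.04 and 11.19 in null chow and 9.88 and 10.15 in null HFD. It was higher on HFD in wild-type and lower on HFD in null liver, with no overlap of groups. Of 32 interferon-stimulated genes 0 were higher and 2 lower (limma), and 17 markers of sinusoidal endothelium had no call (limma).

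**Figure D5:**
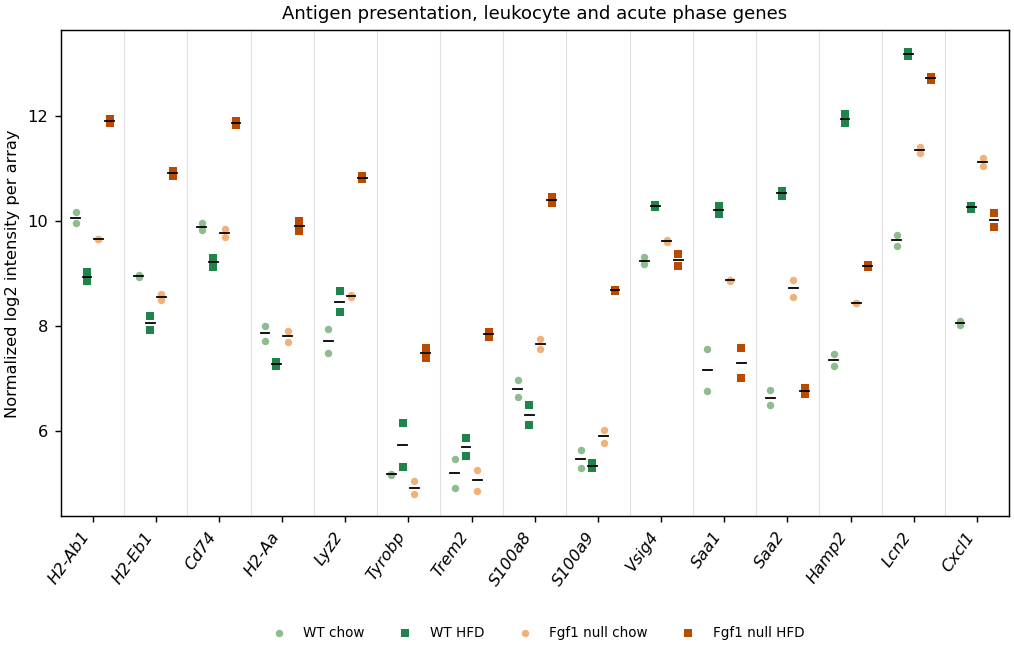
Normalized log2 intensity on each of the 8 liver arrays (points) with group means (black bars) for antigen presentation, leukocyte and acute phase genes. Class II genes, Trem2, S100a8 and S100a9 are highest in Fgf1 null HFD, whereas Saa1, Saa2 and Hamp2 are highest in wild-type HFD.

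Genes of the clock and its output were called in both directions, 4 higher and 9 lower of 26, with a median of -0.77. Pdk4, also counted among the fat burning genes, and Tfrc, listed as output, were among the higher calls, at 1.94 and 1.42. Nr1d1 and Per1 were not called, at 0.70 ± 0.17 and -0.77 ± 0.37. In the molecular clock, Clock and Arntl drive the Per and Cry repressors and output genes such as Dbp, so members peak at different hours. Ciart, a repressor of the clock, read 9.58 and 9.54 in wild-type chow, 9.69 and 9.54 in wild-type HFD, 10.73 and 10.77 in null chow and 8.31 and 8.26 in null HFD. The wild-type groups overlapped, and the null groups lay above and below them, with an interaction of -2.52 ± 0.16 (adjusted p 0.000209, limma). Upp2, a rhythmic uridine phosphorylase, was at -3.08 ± 0.22. Dbp, an output transcription factor, had -1.72 ± 0.19 and the repressor Per2 -1.37 ± 0.26, a call lost without null HFD array 1. Per3, not detected in wild-type chow, was at least 3.32-fold lower. Of the activators, Clock was higher at 1.11 ± 0.17 and Arntl, not detected in wild-type HFD, at least 2.85-fold higher, though the latter's call was lost without wild-type HFD array 2 and without null HFD array 2. The hour at which each liver was taken is not given, so hour and group cannot be told apart.

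Clock and Arntl bind an E box, searched as CACGTG, which reads the same on both strands, in the same windows. Of 23 measured clock genes with a promoter 3 held it (Ciart, Per1 and Tef), of which Ciart was called, against 10.2% of the 6703 tested genes with a promoter. The window of Ciart, chr3:95882229-95882478 on the minus strand upstream of the annotated start, is shown because it holds 3 copies, in capitals, beginning 116, 58 and 44 bases before the start.
Ciart: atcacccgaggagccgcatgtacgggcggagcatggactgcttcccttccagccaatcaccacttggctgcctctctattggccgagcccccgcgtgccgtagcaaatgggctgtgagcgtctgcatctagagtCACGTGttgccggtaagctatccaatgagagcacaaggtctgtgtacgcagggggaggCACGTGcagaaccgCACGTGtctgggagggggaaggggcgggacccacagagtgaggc
The PPAR element, a direct repeat of AGGNCA with 1 base between the copies, was in none of the 15 fat storage genes with a promoter entry and in 0.388% of tested genes with a promoter. Its absence says only that these letters are not in those windows.

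Amino acid genes with a call were mostly lower. Of 48 measured genes of the urea cycle and amino acid breakdown 13 were called lower and 2 higher, with a median of -0.38. By the sign of the group means alone, 9 of the 13 were lower on HFD in both genotypes, farther in null liver. This count takes in genes with next to no wild-type difference, such as Got1 at -0.04 ± 0.14. Asl, which makes arginine in the urea cycle, read 10.90 and 11.53 in wild-type chow, 10.53 and 10.72 in wild-type HFD, 12.32 and 12.41 in null chow and 9.81 and 9.69 in null HFD. Null liver held both its highest and its lowest sample, and the interaction was -2.02 ± 0.29. Cps1 and Ass1, earlier steps of the cycle, were at -1.12 ± 0.16 and -1.07 ± 0.16. Agxt, an aminotransferase, was at -2.04 ± 0.16 and the transaminase Got1 at -1.95 ± 0.19, each with null HFD as the sample that stood apart, below the others. Many of these genes are strongest around the portal vein, and of 23 periportal genes 9 were lower and 0 higher, whereas 24 pericentral genes had 2 calls each way and a median of 0.01, or -0.22 with median scaling. Without null chow array 1 the 13 lower calls became 8, and with the authors' values 5. Asns, which makes asparagine, was higher at 1.39 ± 0.25. Psat1, which makes serine, was called higher, but it was not detected in wild-type liver, has no bound and lost its call in 12 of 21 alternatives, among them the omission of each array but wild-type chow 2 and null chow 2.

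Fuel-handling genes were split. In gluconeogenesis and glycolysis 2 of 21 were higher and 3 lower. Pck1, the gatekeeper of gluconeogenesis, was at -1.78 ± 0.26 and Gys2, liver glycogen synthase, at -2.49 ± 0.29, while Ppp1r3c, which directs glycogen synthesis, was at 1.89 ± 0.17 and G6pc, which releases glucose, was not called at 0.14 ± 0.20. Igfbp2, a binding protein of insulin-like growth factors, fell on HFD by 1.06 in wild-type and fell by 3.24 in null liver, an interaction of -2.18 ± 0.18. Bile acid genes had 3 higher and 1 lower of 22: the transporters Abcc3 and Abcb4 and the acyltransferase Acnat2 were higher at 1.90 ± 0.25, 1.16 ± 0.16 and 2.28 ± 0.27. Cyp7a1, the rate-limiting enzyme of bile acid synthesis, was not called at -0.45 ± 0.16, nor was Cyp8b1 at -0.61 ± 0.16.

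Detoxification and sex-biased genes were called in both directions. Of 31 xenobiotic cytochrome P450 genes 3 were higher and 1 lower. Cyp3a11, a main drug-oxidizing enzyme, read 14.30 and 14.59 in wild-type chow, 9.99 and 9.96 in wild-type HFD, 14.21 and 14.30 in null chow and 12.37 and 12.28 in null HFD. It fell on HFD in both genotypes, less in null liver, and the interaction was 2.54 ± 0.19. Cyp2b9, of which wild-type and null chow were below detection, was at least 21.7-fold above chow on HFD in null and at least 2.56-fold in wild-type liver. Of 13 genes stronger in female mouse liver 5 were higher and 1 lower, and of 28 stronger in male liver 4 were higher and 5 lower. Acot3, Acot4 and Cyp4a14, given above with the thioesterases and fat burning genes, were among the 5. Moxd1, a male-biased monooxygenase-like gene not detected in null HFD, was at least 29.8-fold lower, the largest bound of the comparison. Of 42 conjugation enzymes 3 were higher and 6 lower, Gsta1, a glutathione transferase, being at 3.78 ± 0.42, with both wild-type groups detected on 1 of 2 arrays.

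Matrix, stress and proliferation genes gave calls near the detection limit or mixed in direction. Of 31 genes of extracellular matrix and fibrosis 4 were higher and 0 lower, but none was called without background correction. The matrix proteases Mmp12 and Mmp13 and the protease inhibitor Timp1 were detected on both arrays in null HFD alone, between 6.35 and 7.32, and have no bound. There Mmp12 was at least 2.33-fold and Timp1 at least 2.27-fold above null chow. Of 29 genes of oxidative stress 6 were higher and 2 lower, the latter being the metallothioneins. Gstm2, a glutathione transferase, read 11.67 and 11.74 in wild-type chow, 11.60 and 11.46 in wild-type HFD, 11.24 and 11.12 in null chow and 12.29 and 12.46 in null HFD. It was highest in null HFD, with no overlap of groups, and the interaction was 1.37 ± 0.18. Of 29 genes of the unfolded protein response 4 were higher and 2 lower, with Creld2, a chaperone, at 1.44 ± 0.20 and Atf4, the transcription factor of amino acid stress, at -1.34 ± 0.20. Of 21 cell cycle genes 5 were higher and 1 lower. Mcm5, a replication helicase subunit, read 8.44 and 8.29 in null HFD against 5.95 to 6.61 on the other arrays, an interaction of 1.67 ± 0.27. Tk1, thymidine kinase, went the other way at -1.58 ± 0.17, with null HFD its lowest sample at 7.90 and 7.94.

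Further genes among the largest calls belong to none of these groups. Slpi, a secreted protease inhibitor, was at 3.54 ± 0.22 and Nrep, a neuronal regeneration protein, at 3.33 ± 0.18. Ly6d, a membrane protein of lymphoid and epithelial cells, was at least 8.40-fold higher. Tff3, a mucosal trefoil peptide, was at least 15.8-fold lower, with wild-type HFD at 8.42 and 8.95 and no other array above 5.83. Foxq1, a forkhead transcription factor, was at -2.99 ± 0.21. Taf15, an RNA-binding protein, read 5.69 and 6.50 in wild-type chow, 8.81 and 7.55 in wild-type HFD, 7.62 and 7.79 in null chow and 7.11 and 6.34 in null HFD. Its groups overlapped in part, and its interaction of -3.07 ± 0.63 lost the call without null chow array 1 or 2 or null HFD array 2. Fgfr1op2, an FGFR1 oncogene partner, was at 3.20 ± 0.23, and at 1.30 with the mean of its probes. In wild-type HFD liver, 8 of the 29 exocrine pancreas markers with a probe were undetected on both arrays, against 22 to 24 in the other samples, and their summed intensity was 1996 to 3020 against 1332 to 1486. Cela2a, a pancreatic elastase and the 1 such marker called, was not detected in null HFD and was at least 6.08-fold lower. It lost its call in 8 of 21 alternatives, 6 of which leave out an array of a group other than wild-type HFD. Its fitted interaction was -2.68 ± 0.67, and -1.78 without wild-type HFD array 1. The part of this difference in the interactions above was not tested.

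Large housekeeping groups, and complement genes, were near the share of calls over all rows or below it. Of 68 genes of oxidative phosphorylation 0 were higher and 1 lower, of 51 ribosomal protein genes 1 was higher and 0 lower, and of 26 complement genes 0 were higher and 1 lower (limma). None of 32 proteasome genes was called (limma).

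The same difference of diet effects in epididymal fat, fitted on that tissue's 8 arrays, was called in 39.5% of 11935 rows, 19.3% higher and 20.2% lower. Of the 596 genes called in liver and measured in fat, 127 were called the same way in fat (21.3% of the 596 and 4.65% of the 2729 called genes of fat measured in both) and 203 the opposite way (34.1%). Markers of other tissues were among the calls in fat. Of 9 hepatocyte markers measured there 7 were lower and 1 higher, with a median interaction of -4.90. Of 28 exocrine pancreas markers 27 were higher and 1 lower, and of 12 epididymis and testis markers 10 were higher and 0 lower. The part of these markers in the fat calls was not tested, nor was the difference between the tissues.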

How the data were processed

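The authors labelled RNA with biotin for 16 arrays, 8 of them of liver, of the 1-colour Illumina type MouseRef-8, which holds 25697 probes. The deposited table of non-normalized data gives an intensity and a detection p-value per probe and array, per the file headers. GenomeStudio is named in the submitters' processing notes, with no version. A deposited table of the authors' normalized intensity values, whose normalization is not stated, served as an alternative. Gene symbols came from the platform annotation, updated through RefSeq where they matched.

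The 8 liver arrays were background-corrected and quantile-normalized together with neqc of limma 3.58.1 (R 4.3.3, offset 16) using the detection p-values. Probes needed a detection p under 0.05 on the 2 arrays of any group, and the brightest probe stood for a gene. A model with 1 mean per group was fitted (lmFit, eBayes), with p-values adjusted by Benjamini-Hochberg over all 8894 rows, and ± is its standard error. A call needed an adjusted p under 0.05 and 2-fold. Where a group was undetected, "at least" sets it at the lowest detected signal of its arrays or its own, whichever is higher. No total count exists for arrays, and the 2 arrays per group limit the precision. The pipeline was tested on simulated data.

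Genes named were drawn from the 12 largest called each way, up to 4 called members of each list (8 for the main lists) and a fixed set. The first 2 sorts took only genes detected on both arrays of every group, or with a bound of at least 2-fold by which they were ranked, whose sign held on every combination of arrays. The remaining named genes, chosen after their values were seen, fill in lists, promoters and markers. Members and lists were chosen with earlier results of these data known. Alternatives changed the background correction, normalization, filters, probe rule, fold, prior and replicate block, and left out each array.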

Additional observations from a re-analysis of the deposited data

Results flagged for a closer look

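Of the 203 genes called in opposite directions in liver and epididymal fat, 9 are given here. They are among the 12 largest called each way in liver or the fixed set of genes. Each was detected on both arrays of every liver group or has a bound of at least 2-fold. Each kept its sign in both tissues on every combination of arrays. Cidec (5.19 in liver and -1.10 in fat), of the fixed set, was also called in opposite directions but was detected on 1 of 2 wild-type HFD liver arrays. Cidea and Cyp2b9, also of that set and opposite, had liver groups undetected without a bound. Further named genes, such as Abcb4, Acnat2 and Bcl6, also had opposite signs. The difference between the tissues was not tested, each tissue being 4 RNA samples of 2 technical arrays. Hepatocyte markers had a median diet difference of 5.79 in wild-type fat and a median interaction of -4.90 in fat. The part of markers of other tissues in the fat values below was not tested. Higher in liver and lower in fat were Pparg (2.16 ± 0.17 and -1.21), Plin2 (1.33 ± 0.31 and -3.56), Cyp4a14 (2.27 ± 0.26 and -2.47), Cyp3a11 (2.54 ± 0.19 and -3.25), Nrep (3.33 ± 0.18 and -2.71), S100a8 (3.23 ± 0.25 and -5.59) and S100a9 (2.90 ± 0.22 and -2.21). Lower in liver and higher in fat were Lcn2 (-2.18 ± 0.18 and 1.94) and Pck1 (-1.78 ± 0.26 and 1.60).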

How the results depend on the processing

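With no background correction 346 genes were called, 180 higher and 166 lower, and with the authors' normalized values 382, 218 higher and 164 lower. An offset of 50 gave 256 higher, and a minimum of 1.5-fold or no minimum fold gave 1182 calls, 688 higher and 494 lower. Median scaling put the median of all genes at -0.06 in place of 0.05 and the share of calls that were higher at 49.8% in place of 57.3%, and moved 35 of 55 list medians by more than their spread between arrays. The other alternatives stayed within 1.5 times of each count. Leaving out each array gave 525 to 839 calls, 291 to 453 higher and 232 to 386 lower, with 484 to 607 of the 703 called again in the same direction. With the replicate number as a block, which does not pair the samples by their deviations (correlations of -0.07 to 0.01), 655 were called, 381 higher and 274 lower. Of the 140 called genes named by the rule 45 lost the call in at least 1 alternative, 26 of them without an array, and of 27 called genes named beyond it 13 did. None of them reversed. Values of dim genes shrank without background correction, as that of Mogat1 did from 3.49 to 1.82. The causes were not tested. Arrays set the limit: 1 RNA sample per group leaves the spread between mice unmeasured, and signals near background have only bounds.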
